A study of Mus musculus with 9 samples.

Results

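The genes described here are 10 core genes of monocytes and macrophages, Csf1r, Emr1, Cd68, Mertk, C1qa, C1qb, C1qc, Lyz2, Ccr2 and Chil3. They were chosen by symbol as markers of these cells, with no measured value in the rule but with earlier results of these data known. All 10 were found among the 41128 genes of the count table and passed the filter on low counts. They were measured by RNA-seq in 9 mouse lymphomas, 1 library per tumor. All mice carried the IµBcl6 transgene, through which B cells go on expressing Bcl6, and 1 Cre allele at the Cγ1 locus (Cγ1 wt/cre), which acts in B cells of the germinal center reaction. The 3 Bcl6 tumors were Smc3 wt/wt and the 6 Smc3/Bcl6 tumors were Smc3 wt/-, with 1 Smc3 allele deleted. The Cre acts in B cells, so monocytes and macrophages of both genotypes would keep both Smc3 alleles, which was not checked here. Age was not given in the sources used here. By the sample labels, replicate 1 of both genotypes came from the mesenteric lymph node, and the remaining 7 tumors are labelled lymph node without further detail. The text of the study names the mesenteric lymph node for the tumors of both genotypes.

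Monocytes leave the bone marrow under the control of the chemokine receptor CCR2 and can become macrophages in tissue, where M-CSF acting through its receptor CSF1R keeps them alive. Macrophages take up dying cells, for which MERTK is a main receptor, digest them in lysosomes, and make C1q, the protein that starts the classical complement pathway. In germinal centers and in lymphomas with fast cell turnover, macrophages filled with dead B cells are a familiar sight in histology. The study describes the libraries as made from lymphoma cells of the lymph node, and which cells in them held the RNA of these genes was not measured. In such bulk RNA, fewer cells of a type and less RNA per cell cannot be told apart.

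The total count ranged from 10156728 to 17774577 per tumor, and every one of the 10 genes had at least 6331 counts over the 9 tumors. Smc3/Bcl6 tumor 2 stood apart, with low counts of long genes and high counts of short genes, and a TMM scaling factor of 0.693 against 0.965 to 1.10 in the other tumors. This touched the 10 genes unequally, since their exon lengths run from 1040 bases for C1qa to 6760 bases for Ccr2. In this tumor, correction for exon length and GC content took C1qb from 1196 to 578 CPM (read counts scaled to the TMM library size) and Cd68 from 415 to 197 CPM, but Ccr2 from 29.3 to 47.2 CPM. Markers of other cells were present in every library. Summed B cell markers were between 2800 and 8805 CPM in Bcl6 tumors and between 4774 and 10585 CPM in Smc3/Bcl6 tumors, and 0 of 8 B cell markers passed the thresholds between genotypes.

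The 3 C1q genes are the tightest group among the 10, in the genome as in the data. C1qb, C1qc and C1qa lie side by side on the minus strand of chromosome 4 within 18675 bases (chr4:136880129-136898803, GRCm38), and encode the B, C and A chains that assemble into 1 protein. Promoter sequences of RefSeq (GRCm38.p6) were matched for 7 of the 10 genes, and not for C1qa, Csf1r and Emr1. The stretches below are shown because C1qb, C1qc and Cd68 moved together across tumors and because their promoter windows, which span each start site, hold letters of motifs known from myeloid promoters. They are printed 5′ to 3′ on the strand of the gene, with the motif in capitals. Distances are to the start site of the RefSeq window. For C1qc this site lies inside the gene as placed by GENCODE (chr4:136889804-136893065). Its stretch is therefore nearer to the GENCODE start than the distance given.
C1qb, chr4:136886201-136886260, minus strand, the last 60 bases before the start site: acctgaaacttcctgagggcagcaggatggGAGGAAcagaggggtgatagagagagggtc
C1qc, chr4:136893075-136893134, minus strand, 60 bases that begin 220 before the start site: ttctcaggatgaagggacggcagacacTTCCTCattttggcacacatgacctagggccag
Cd68, chr11:69666171-69666230, minus strand, the last 60 bases before the start site: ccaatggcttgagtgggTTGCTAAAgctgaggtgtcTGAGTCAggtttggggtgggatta
The capitals in the C1q stretches are the core of the motif of PU.1, a transcription factor of the myeloid lineage (GAGGAA, searched on both strands, TTCCTC being its reverse complement). This core was in the windows of C1qb, C1qc and Cd68, 3 of the 7 genes, and in 28.3% of all 32851 windows. The capitals in the Cd68 stretch are a C/EBP match (TTGCNNAA, in 10.8% of windows) and an AP-1 match (TGANTCA, in 7.80% of windows), each found in 1 of the 7 genes. The motifs do not overlap in these stretches. Mertk, Lyz2, Ccr2 and Chil3 had none of these motifs in their windows. A match is a description of these letters, and binding was not measured here. The part of these letters in the shared movement of the genes was not tested.

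The 10 genes differed widely in level, and each varied widely between tumors. Per kilobase of exon, Lyz2 was the highest, with a median level over 9 tumors of 1896 CPM per kb, followed by C1qb (425), C1qa (186), C1qc (161) and Cd68 (140). Csf1r (45.4 CPM per kb), Chil3 (18.7), Mertk (10.8), Emr1 (10.3) and Ccr2 (4.33) followed. The ranges over tumors of each pair of neighbours in this order overlapped. The SD of log2 CPM over the 9 tumors was between 0.99 for Cd68 and 2.75 for Lyz2, with a median over the 10 genes of 1.84, against a median of 0.63 over all 14057 genes tested. The ratio of the highest to the lowest tumor was 8.22 for Cd68 and between 30.1 and 68.3 for the other 9 genes.

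**Figure D1:**
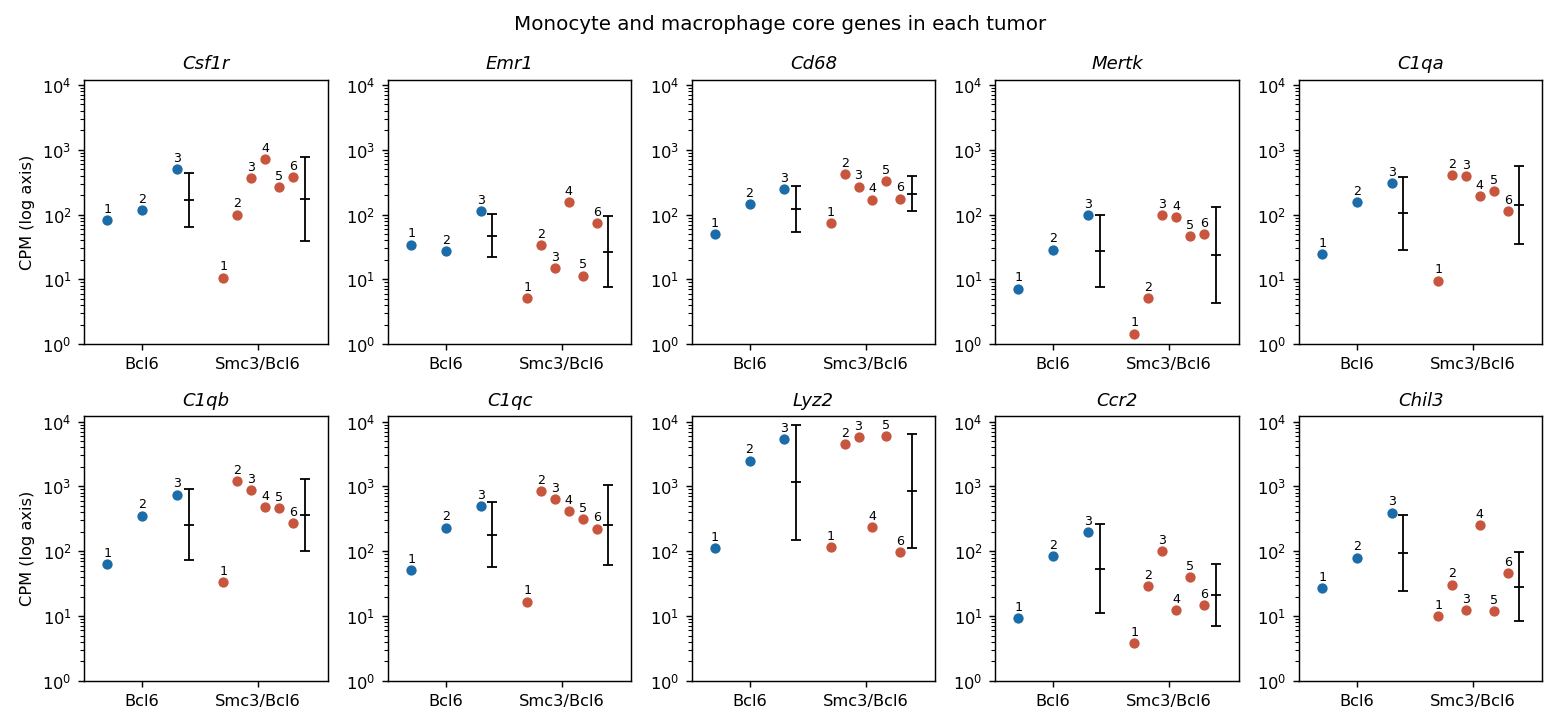
CPM of each of the 10 genes on a log axis, with 1 point per tumor (numbers are replicates) for 3 Bcl6 and 6 Smc3/Bcl6 tumors, and black marks for the mean and SD of log2 CPM. In all 10 panels the genotypes overlap, and Smc3/Bcl6 tumor 1 is the lowest tumor in 8 of them.

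Csf1r (ENSMUSG00000024621.10, chr18:61100598-61132149) encodes the receptor for M-CSF. Bcl6 tumors 1 to 3 had 81.9, 117 and 497 CPM of it, and the Smc3/Bcl6 tumors from 10.7 to 719 CPM with a median of 311 CPM. The Bcl6 tumors all fell inside the range of the Smc3/Bcl6 tumors, whose lowest was tumor 1 and highest tumor 4. A gene on the opposite strand, Hmgxb3, overlaps Csf1r and had 6082 counts over the tumors, and the strand setting of the counting was not given in the sources used here. Mertk (ENSMUSG00000014361.5, chr2:128698956-128802894), the receptor for uptake of apoptotic cells, had 7.22, 28.7 and 96.8 CPM in Bcl6 tumors and from 1.45 to 99.3 CPM, with a median of 48.6 CPM, in Smc3/Bcl6 tumors. Smc3/Bcl6 tumors 1 and 2 held the lowest values of Mertk.

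Emr1 (ENSMUSG00000004730.9, chr17:57358691-57483527), an adhesion receptor on the surface of mouse macrophages and also of eosinophils, had 34.3, 27.2 and 114 CPM in Bcl6 tumors. Its range in Smc3/Bcl6 tumors was 5.19 to 156 CPM, with a median of 24.2 CPM. Smc3/Bcl6 tumors 1, 3 and 5 were below all Bcl6 tumors for Emr1, and Smc3/Bcl6 tumor 4 was above them. Chil3 (ENSMUSG00000040809.10, chr3:106147554-106167564) encodes a secreted chitinase-like protein made by monocytes, neutrophils and alternatively activated macrophages. It had 26.7, 79.6 and 394 CPM in Bcl6 tumors and from 10.04 to 252 CPM, with a median of 21.4 CPM, in Smc3/Bcl6 tumors. Of the Smc3/Bcl6 tumors, numbers 1, 3 and 5 were below all Bcl6 tumors for Chil3, as for Emr1. Its paralog Chil4 had 12 counts over all 9 tumors, and reads that match both genes were not measured.

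Cd68 (ENSMUSG00000018774.8, chr11:69664213-69666153), a glycoprotein of the lysosomal membrane, had 50.5, 144 and 246 CPM in Bcl6 tumors. It had from 73.4 to 415 CPM, with a median of 223 CPM, in Smc3/Bcl6 tumors. It was the least variable of the 10 genes, and its highest value was in Smc3/Bcl6 tumor 2, the tumor in which short genes were high, and after correction in Smc3/Bcl6 tumor 5 (350 CPM). C1qb (ENSMUSG00000036905.8, chr4:136880129-136886187) had 63.3, 356 and 747 CPM in Bcl6 tumors and from 33.2 to 1196 CPM, with a median of 472 CPM, in Smc3/Bcl6 tumors. C1qa (ENSMUSG00000036887.5, chr4:136895917-136898803) was at 24.7, 154 and 303 CPM in Bcl6 tumors and at 9.56 to 409 CPM, with a median of 212 CPM, in Smc3/Bcl6 tumors. C1qc (ENSMUSG00000036896.5, chr4:136889804-136893065) was at 51.3, 231 and 495 CPM in Bcl6 tumors and at 16.7 to 837 CPM, with a median of 363 CPM, in Smc3/Bcl6 tumors. All 3 C1q genes were lowest in Smc3/Bcl6 tumor 1, next lowest in Bcl6 tumor 1 and highest in Smc3/Bcl6 tumor 2, but after correction for length and GC content Smc3/Bcl6 tumor 3 was the highest of the 9 for all 3. The corrected values in tumors 2 and 3 were 578 and 921 CPM for C1qb, 205 and 411 CPM for C1qa, and 499 and 654 CPM for C1qc.

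Lyz2 (ENSMUSG00000069516.7, chr10:117277331-117282321) encodes lysozyme of monocytes, macrophages and neutrophils. Its values were 112, 2495 and 5415 CPM in Bcl6 tumors, and 117, 4499, 5786, 234, 5888 and 96.1 CPM in Smc3/Bcl6 tumors 1 to 6. The values fell into separate ranges, 4 tumors between 96.1 and 234 CPM and 5 tumors between 2495 and 5888 CPM, with both genotypes in each range. Its near-identical paralog Lyz1 was at 0.454% to 7.28% of the Lyz2 count in each tumor, and reads that match both genes were not measured. Ccr2 (ENSMUSG00000049103.8, chr9:124101950-124113557), the receptor by which monocytes are recruited, had 9.33, 85.2 and 196 CPM in Bcl6 tumors. It had from 3.81 to 99.3 CPM, with a median of 22.02 CPM, in Smc3/Bcl6 tumors, and of these only tumor 3 was above Bcl6 tumor 2.

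The tumors numbered 1 were low in these genes in both genotypes. Bcl6 tumor 1 was among the 2 lowest tumors for 7 genes and Smc3/Bcl6 tumor 1 for 9, and together they were the 2 lowest for 6 genes, Csf1r, Cd68, C1qa, C1qb, C1qc and Ccr2. These are the 2 tumors labelled mesenteric lymph node, so the number and the tissue label cannot be told apart. Summed CPM of the 10 genes was 462 in Bcl6 tumor 1 and 281 in Smc3/Bcl6 tumor 1, against 1438 to 8546 in the other 7 tumors.

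**Figure D2:**
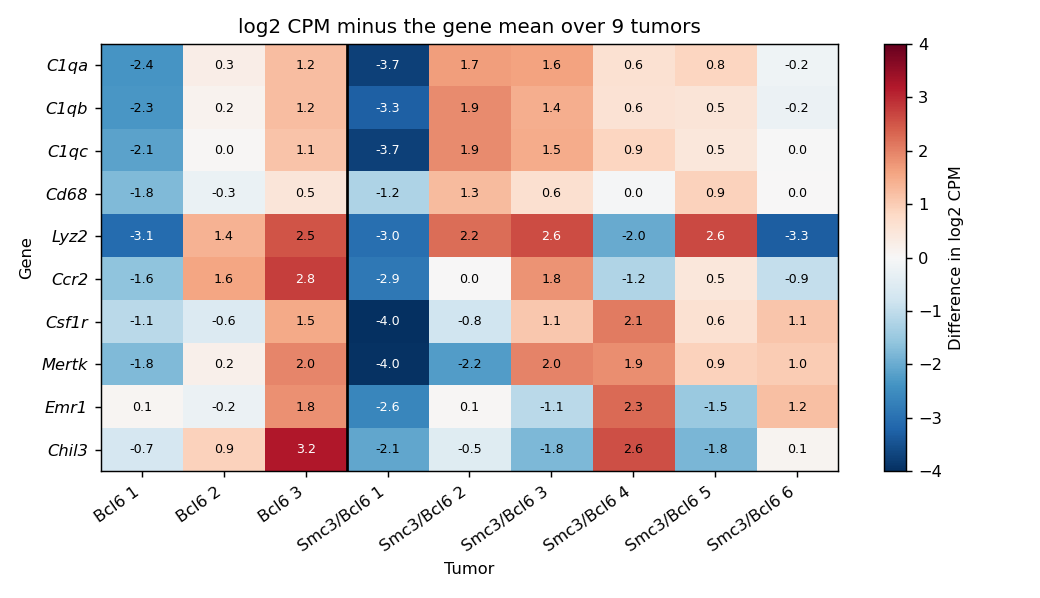
Difference of log2 CPM from the mean of each gene over the 9 tumors (rows are genes, columns are tumors, the black line separates Bcl6 from Smc3/Bcl6). The C1q rows look alike across all columns, Smc3/Bcl6 tumors 4 and 6 are low in Lyz2 while Csf1r, Mertk and Emr1 are high there, and the columns of both tumors numbered 1 are mostly low.

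Across the 9 tumors, no genotype difference of the 10 genes passed the thresholds of the study, which ask for an unadjusted p below 0.1 together with a log2 fold change of over 0.56 in size. The gene with the smallest p was Ccr2, with a log2 fold change of Smc3/Bcl6 over Bcl6 of -1.54 (standard error 0.95, unadjusted p = 0.136, Benjamini-Hochberg adjusted p = 1.00 by the quasi-likelihood test of edgeR). The values of Chil3 and Cd68 were -1.46 (standard error 1.11) and 0.70 (standard error 0.59). The other 7 genes had log2 fold changes between -0.25 for Emr1 and 0.65 for C1qc, each below its standard error. For edgeR, the standard errors given throughout were derived from the test itself. Each is the size of the log2 fold change divided by the square root of the F statistic, so it adds nothing to the p-value. For Mertk and Lyz2 the fitted log2 fold change (0.15 and 0.05) had the opposite sign to the difference in mean log2 CPM. Of all genes tested, 1.28% passed the thresholds as higher and 0.868% as lower, and 0.484% had groups that did not overlap, against 0 of the 10 genes on each count. The median log2 fold change was 0.27 over the 10 genes and 0.06 over all genes tested, and the median standard error was 0.96 against 0.46. No gene of the table had an adjusted p below 0.05 by edgeR, DESeq2 or limma, and 79 had an unadjusted p below 0.05 by edgeR, 209 by DESeq2 and 1171 by limma.

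Single tumors decided some of these values. Without Bcl6 tumor 1, Ccr2 passed the thresholds at a log2 fold change of -2.14 (standard error 0.92), and without Smc3/Bcl6 tumor 3 at -2.36 (standard error 0.91). Of all genes tested in these fits, 240 of 14637 and 321 of 13830 were lower. Without Smc3/Bcl6 tumor 4, Chil3 passed at -3.01 (standard error 0.85), and without Bcl6 tumor 3 its value turned to 0.18 (standard error 1.25). Without Bcl6 tumor 3, Cd68 passed at 1.29 (standard error 0.68). Of all genes tested, 148 of 13762 were lower without Smc3/Bcl6 tumor 4, and 226 of 14594 higher without Bcl6 tumor 3. With the tissue label as a covariate, Ccr2 passed at -1.71 (standard error 0.63), and among the 7 tumors labelled lymph node at -1.84 (standard error 0.76). Of all genes tested in these fits, 192 of 14057 and 150 of 14546 were lower. Without Smc3/Bcl6 tumor 2, the tumor with the length effect, 0 of the 10 genes passed. Of all 13942 genes tested there, 194 were lower and 339 higher.

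Over replicates 1 to 3 of both genotypes, 2 of the 10 genes were lower in Smc3/Bcl6 tumors past the same thresholds and 0 were higher. Of all 13360 genes tested in these 6 tumors, 0.659% were lower and 1.26% higher. Chil3 was at a log2 fold change of -3.37 (standard error 1.06, unadjusted p = 0.0157 by edgeR) and Emr1 at -1.81 (standard error 0.83, unadjusted p = 0.0660), each with an adjusted p = 1.00. Chil3 also passed without each of the 6 tumors in turn, whereas Emr1 did not pass without Bcl6 tumor 3 (-0.78), Smc3/Bcl6 tumor 1 (-1.22) or Smc3/Bcl6 tumor 3 (-1.74). Mertk passed without Smc3/Bcl6 tumor 3 (-3.90), but was at -0.37 (standard error 1.53) over all 6 tumors. Without that tumor 902 of all 13680 genes tested were lower and 1100 higher. The groups did not overlap for 2.44% of all genes tested and for 0 of the 10 genes. The median log2 fold change was -0.04 over the 10 genes and -0.03 over all genes.

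The replicate number was then used as a block, though only the numbers in the labels pair the tumors. With the block, 5 of the 10 genes were lower and 0 higher past the thresholds. Of all genes tested, 1.90% were lower and 0.337% higher. The log2 fold change of Ccr2 was -1.30 (standard error 0.35, unadjusted p = 0.00856 by edgeR), and that of Chil3 was -2.50 (standard error 0.85, unadjusted p = 0.0244). Mertk was at -1.60 (standard error 0.60, unadjusted p = 0.0362), Emr1 at -1.88 (standard error 0.73) and Csf1r at -1.19 (standard error 0.60). All 10 genes had an adjusted p of at least 0.983. Within the 3 pairs of tumors with the same number, Ccr2, Chil3 and Csf1r were lower in the Smc3/Bcl6 tumor in 3 of 3, and Emr1 and Mertk in 2 of 3. The difference in log2 CPM of Ccr2 ran from -1.54 to -0.98 over the pairs, the narrowest span among these 5 genes, and that of Chil3 from -5.00 to -1.38. The remaining 5 genes did not pass, and their values were 0.70 (standard error 0.40) for Cd68, 0.30 for Lyz2, 0.31 for C1qb, 0.19 for C1qc and 0.13 for C1qa. Cd68 and Lyz2 were higher in the Smc3/Bcl6 tumor of 3 of 3 pairs and the C1q genes in 2 of 3.

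The block rested on its pairs unevenly. Without both tumors numbered 1, Chil3 and Ccr2 were the 2 genes of the 10 that passed. Of all 13783 genes tested there, 305 were lower and 71 higher. Without both numbered 2 it was 4 (Chil3, Ccr2, Emr1 and Csf1r), where 179 of all 13383 genes were lower and 54 higher. Without both numbered 3 it was also 4 (Mertk, Chil3, Ccr2 and Csf1r), where 878 of all 13282 genes were lower and 436 higher. Chil3 and Ccr2 thus passed in each of these 3 fits, which share tumors with one another. With the length and GC correction added to the block, 4 genes passed, the same as before without Csf1r. In that fit 252 of all 13360 genes were lower and 67 higher. Over the block fit the median log2 fold change was -0.53 for the 10 genes and -0.08 for all genes tested.

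**Figure D3:**
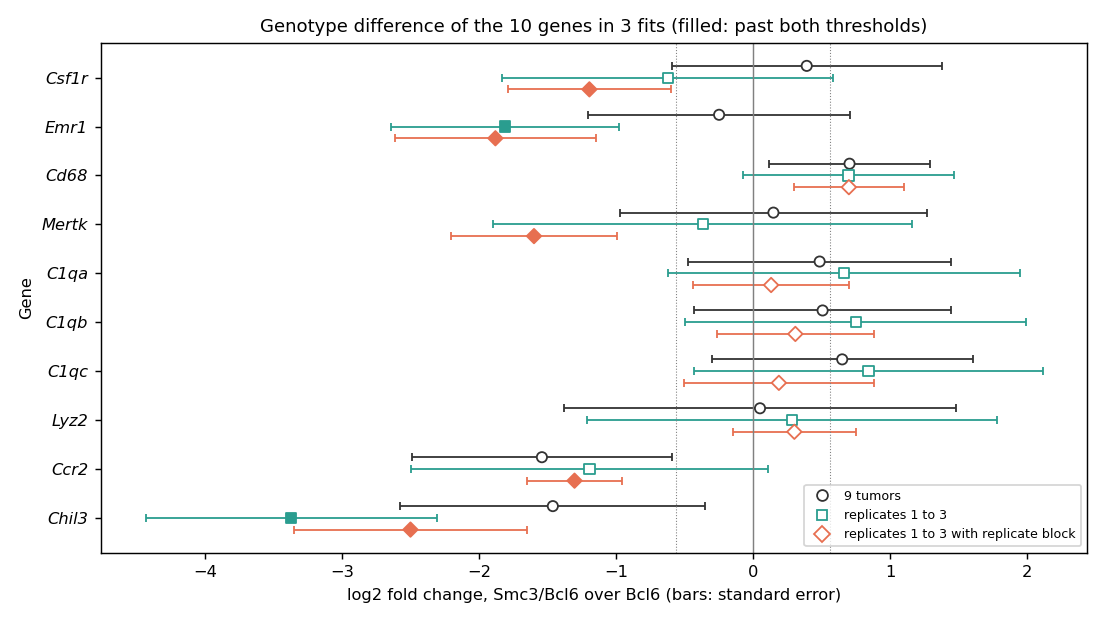
log2 fold change of Smc3/Bcl6 over Bcl6 tumors with its standard error for the 10 genes, over 9 tumors (circles), replicates 1 to 3 (squares) and replicates 1 to 3 with the number as a block (diamonds), with filled marks past both thresholds and dotted lines at a log2 fold change of 0.56 in either direction. No circle is filled, 2 squares are, and 5 diamonds are, all to the left of 0.

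Markers of other cell types were highest or lowest in some of the same tumors as these genes. Summed CPM of 11 neutrophil markers was 195, 39.8 and 2291 in Bcl6 tumors and between 28.4 and 980 in Smc3/Bcl6 tumors, and the highest 2 tumors for this sum, Bcl6 3 and Smc3/Bcl6 4, were also the highest 2 for Chil3 and for Emr1. Outside these 2 tumors the order differed. Smc3/Bcl6 tumor 1 was the lowest in Chil3 and Emr1 with a neutrophil sum of 223 CPM. Bcl6 tumor 2 had a sum of 39.8 CPM with Chil3 at 79.6 CPM. The most abundant neutrophil marker, S100a8, ranged from 5.91 to 587 CPM. Over replicates 1 to 3, 5 of the 11 neutrophil markers were lower past the thresholds, with a median log2 fold change of -2.92, and with the block it was 1 of 11, with a median of -0.68. Over the 9 tumors it was 2 of 11, with a median of -1.36. Summed eosinophil markers were 35.9, 21.8 and 117 CPM in Bcl6 tumors and between 6.86 and 223 CPM in Smc3/Bcl6 tumors, and over replicates 1 to 3, 1 of 4 tested was lower. The part of these cells in the values of Chil3 and Emr1 was not tested.

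Summed T cell markers were 235, 2248 and 1745 CPM in Bcl6 tumors and between 71.1 and 2492 CPM in Smc3/Bcl6 tumors. The 4 tumors lowest in Lyz2 were also the 4 lowest in this sum, with 71.1 to 249 CPM. With the block, 2 of 8 T cell markers were lower and all 8 had negative log2 fold changes, and 1 of 6 NK cell markers was lower. Without the block 0 of 8 and 0 of 6 passed over the same tumors. Dendritic cell markers varied less, with sums between 155 and 315 CPM over all 9 tumors, and 0 of 8 passed in any of the 3 fits. Summed erythroid markers were between 45.3 and 1473 CPM in Bcl6 tumors and between 122 and 12930 CPM in Smc3/Bcl6 tumors, with 3 of 8 higher over the 9 tumors. Plasma cell sums ranged from 883 to 5549 CPM, NK cell sums from 6.23 to 309 CPM and sums of stromal and endothelial markers from 30.7 to 339 CPM. No listed marker was at 0 in every tumor, and the part of these cells in the values of the 10 genes was not tested.

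**Figure D4:**
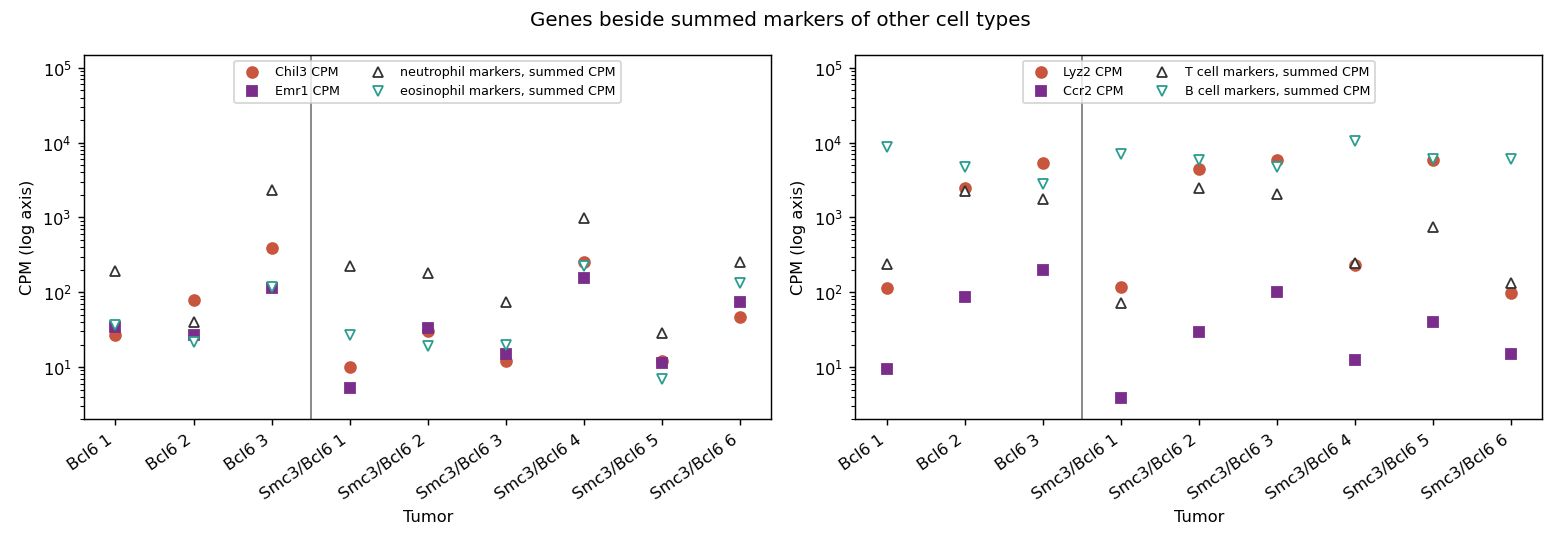
CPM on a log axis in each tumor, for Chil3 and Emr1 with the summed neutrophil and eosinophil markers on the left, and for Lyz2 and Ccr2 with the summed T cell and B cell markers on the right. On the left the highest point of each of the 4 series is in Bcl6 tumor 3 or Smc3/Bcl6 tumor 4, and on the right Lyz2 and the T cell markers are both low in Bcl6 tumor 1 and Smc3/Bcl6 tumors 1, 4 and 6.

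The 10 genes moved together to different degrees across tumors. Log2 CPM was compared for all 45 pairs of genes over the 9 tumors, with exact permutation tests and Benjamini-Hochberg adjustment over the pairs. By Pearson's r, 13 pairs had an adjusted p below 0.05, and by Spearman's rho 6 pairs did, which were also among the 13. The values of Lyz2 fall into separate ranges, so no r is given for it, and 4 of the 13 pairs include it. The points are the same 9 libraries of both genotypes for every pair, and the genes of a pair share their depth and scaling.

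C1qa and C1qb had r = 0.994 and rho = 0.983 over the 9 tumors (exact permutation, adjusted p = 0.000124 and 0.000744), and r was 0.978 without the 2 tumors farthest from the median of C1qa. C1qb and C1qc had r = 0.993 and rho = 1.00 (exact permutation, adjusted p = 0.000124 and 0.000248), and 0.978 without the 2 farthest. In shares of the summed CPM per kb of the 3 genes, C1qb held 55.0% ± 3.45 (SD, n = 9), C1qa 23.0% ± 2.54 and C1qc 21.96% ± 2.52, while the C1qb level itself varied 36.0-fold between tumors. Cd68 followed them, with r = 0.9001 and rho = 0.883 to C1qa (exact permutation, adjusted p = 0.0144 and 0.0338) and r = 0.785 without the 2 farthest tumors.

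Csf1r and Mertk, the receptors for M-CSF and for apoptotic cells, had r = 0.943 and rho = 0.867 (exact permutation, adjusted p = 0.00140 and 0.0338), and r = 0.863 without the 2 farthest tumors. Emr1 and Chil3 had r = 0.889 and rho = 0.867 (exact permutation, adjusted p = 0.0115 and 0.0338), and r = 0.847 without the 2 farthest. Csf1r and C1qb were less alike, with r = 0.726 and rho = 0.450 (exact permutation, adjusted p = 0.0629 and 0.383), and r was -0.20 without the 2 farthest tumors, so the relation rested on those tumors. Mertk and C1qb went the other way. They had r = 0.652 and rho = 0.483 (exact permutation, adjusted p = 0.106 and 0.383), and r = 0.942 without the 2 farthest. Emr1 and Cd68 had r = 0.157 and rho = -0.07 (exact permutation, adjusted p = 0.733 and 0.9001), and r = -0.17 without the 2 farthest.

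Ratios within a tumor show the same in plain values. Lyz2 was between 0.357 and 12.7 times the count of C1qb, a 35.7-fold span, with the lowest ratios in Smc3/Bcl6 tumors 6 (0.357) and 4 (0.486) and the highest in Smc3/Bcl6 tumor 5. Csf1r was between 0.0835 and 1.49 times C1qb and above it in Bcl6 tumor 1 and Smc3/Bcl6 tumors 4 and 6. The lowest ratio was in Smc3/Bcl6 tumor 2, in which short genes such as C1qb were high. Emr1 was between 0.0173 and 0.541 times C1qb, and Chil3 between 0.0140 and 0.527 times. The genotypes overlapped in each of these 4 ratios. Ccr2 was 0.147, 0.239 and 0.262 times C1qb in the 3 Bcl6 tumors and between 0.0245 and 0.115 times in the 6 Smc3/Bcl6 tumors, without overlap. This ratio was singled out after its values were seen, Ccr2 is long and C1qb short, and no test was made of it. How often other gene ratios separate the genotypes was not computed. After correction for length and GC content, Bcl6 tumor 1 had 8.10 CPM of Ccr2 and 68.55 CPM of C1qb. Smc3/Bcl6 tumor 3 then had 99.7 and 921 CPM, which brought the ratios of these tumors closer together.

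**Figure D5:**
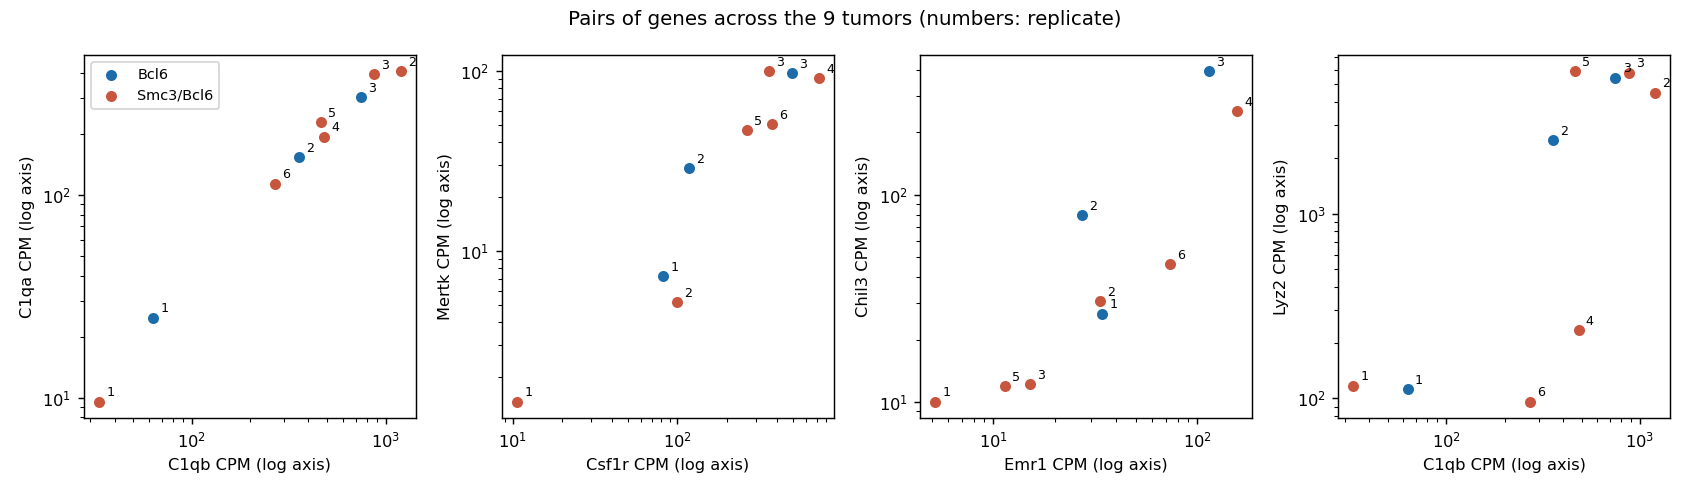
CPM of 4 pairs of genes on log axes, 1 point per tumor, with numbers for replicates. C1qa against C1qb lies close to a line, Mertk against Csf1r and Chil3 against Emr1 rise together with more scatter, and Lyz2 against C1qb has Smc3/Bcl6 tumors 4 and 6 far below the tumors of like C1qb level.

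The other genes of the pathways around these 10 were taken from lists, and most of them did not pass the thresholds. Of 14 genes of M-CSF signaling and lineage regulation, 0 passed over the 9 tumors or over replicates 1 to 3, and 2 were lower with the block. These were Maf, a transcription factor of mature macrophages (-1.48, standard error 0.73), and Nr4a1, a nuclear receptor needed for patrolling monocytes (-0.80, standard error 0.40). The gene of this list with the smallest p for a higher value over the 9 tumors was Csf2rb, the shared beta chain of the GM-CSF receptor, with 0.47 (standard error 0.60). Of 11 genes for uptake of apoptotic cells, 0 passed without the block and 1 was lower with it, the scavenger receptor Stab1 (-1.59, standard error 0.75). Axl, a receptor kinase of the same family as Mertk, had 1.31 (standard error 0.81) over the 9 tumors and -0.51 over replicates 1 to 3, its values in Smc3/Bcl6 tumors 4 to 6 being 433, 263 and 231 CPM against 30.2 to 110 CPM in the other 6.

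Of 11 genes of the classical complement pathway, 1 was lower over the 9 tumors, Cd93, once described as a C1q receptor (-1.33, standard error 0.55), and it was lower over replicates 1 to 3 as well (-1.86, standard error 0.77). Its level was low, 3.87, 4.10 and 12.9 CPM in Bcl6 tumors and 0.9004 to 4.05 CPM in Smc3/Bcl6 tumors. The call rested on Bcl6 tumor 3, without which Cd93 was at -0.53 over the 9 tumors and 0 genes of the list passed. Over replicates 1 to 3, Cd93 also did not pass without Bcl6 tumor 3 (-0.97), Smc3/Bcl6 tumor 1 (-1.41) or Smc3/Bcl6 tumor 2 (-1.83), nor with limma (-1.66). Over the 9 tumors, 3 genes of the list passed with limma, with the tissue label as a covariate or without Bcl6 tumor 1. Of all 14057 genes tested, 1002 were lower and 642 higher with limma, and 192 and 130 with the tissue label. Without Bcl6 tumor 1 it was 240 and 126 of 14637. With the block, Cd93 and C4b (-1.21, standard error 0.42), whose product is cut by the C1 complex, were lower. Of 14 genes of monocyte recruitment and surface, 1 was lower over the 9 tumors, Vcan, a proteoglycan gene high in classical monocytes (-2.15, standard error 0.94). Vcan had 0.704, 0.377 and 8.68 CPM in Bcl6 tumors and at most 1.36 CPM in Smc3/Bcl6 tumors, so only Bcl6 tumor 3 was above the Smc3/Bcl6 tumors. Without that tumor the log2 fold change of Vcan was 0.42 and 0 genes of the list passed, and with limma it was -0.11. DESeq2 gave -2.19 with no p-value for Vcan, and 0 genes of the list passed with it. With the block Vcan and the integrin Itgam (-1.14, standard error 0.37) were lower and the chemokine Ccl12, a ligand of CCR2, was higher (1.74, standard error 0.52). Ccl12 was at 0.0881, 7.60 and 5.85 CPM in the Bcl6 tumors and at 0.208, 36.2 and 17.2 CPM in Smc3/Bcl6 tumors 1 to 3.

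Of 17 genes of lysosome proteins, 0 passed in any of the 3 fits, and the protease gene Lgmn, with 0.68 (standard error 0.38) over the 9 tumors, had the smallest p. Of the genes of alternative activation, a macrophage state induced by IL-4, 0 of 10 passed over the 9 tumors and 0 of 9 over replicates 1 to 3. Over the 9 tumors 2 genes passed with DESeq2, 2 with limma and 4 with the replicate block, and over replicates 1 to 3 the count was 2 with DESeq2 and 4 with no filter on low counts. Of all 14057 genes tested over the 9 tumors, 342 were higher and 101 lower with DESeq2, and 642 and 1002 with limma. With the block over the 9 tumors it was 55 and 264. Over replicates 1 to 3 it was 425 and 116 of 13360 with DESeq2, and 536 each way of 25106 with no filter. With the block 3 of 9 were lower, the mannose receptor Mrc1 (-1.58, standard error 0.63), Retnla (-2.62, standard error 1.09) and Arg1 (-1.75, standard error 0.86). Over the 9 tumors Mrc1 had 2.72 (standard error 1.86), and it was at 242 and 152 CPM in Smc3/Bcl6 tumors 4 and 6 and between 0.845 and 17.6 CPM in the other 7. Cd163, the haemoglobin scavenger receptor, had 67.3 and 66.7 CPM in the same tumors and at most 1.67 CPM elsewhere. Slc40a1, the iron exporter ferroportin in the list of spleen and lymph node macrophages, had 1124 and 442 CPM there and 6.23 to 134 CPM elsewhere. Of that list, 0 of 10 passed over the 9 tumors, 1 of 7 was lower over replicates 1 to 3, Slc40a1 (-2.39, standard error 0.98), and with the block Slc40a1 (-1.89) and Siglec1 (-2.28), a sialic acid receptor of sinus macrophages, were lower. Slc40a1 did not pass over replicates 1 to 3 without Bcl6 tumor 1 (-1.30), Smc3/Bcl6 tumor 2 (-2.06) or Smc3/Bcl6 tumor 3 (-2.20), nor with limma (-0.66). These 2 tumors, Smc3/Bcl6 4 and 6, are those with low Lyz2 and with Csf1r at 719 and 374 CPM.

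The counts of these lists moved with the settings. Over the 9 tumors, the number of genes past the thresholds in 19 alternatives was 0 to 3 for M-CSF signaling, 0 to 2 for uptake of apoptotic cells, 0 to 3 for complement, 0 to 3 for recruitment, 0 to 2 for lysosome proteins, 0 to 4 for alternative activation and 0 to 4 for spleen and lymph node macrophages. Over replicates 1 to 3, in 18 alternatives, it was 0 to 3, 0 to 3, 0 to 4, 0 to 6, 0 to 1, 0 to 4 and 0 to 3 in the same order. The counts over all genes moved too. Over the 9 tumors 61 to 1002 genes were lower and 55 to 642 higher, of 13762 to 26445 tested. Over replicates 1 to 3 it was 80 to 902 lower and 23 to 1100 higher, of 13127 to 25106 tested. Of the 13 calls with the block in these lists, 1, Ccl12, passed in all 3 fits without both tumors of a number.

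Outside the 10 genes, likeness was measured as Pearson's r of log2 CPM with the mean z-score of the 10 genes over the 9 tumors, among 10339 tested genes with a mean of at least 5 CPM and given without a test. Of these, 59 had an r above 0.9. The 8 most alike were Gpr160, Slc11a1, Clec4a1, Cd14, Clec4a3, Mgst1, Pilra and Tnfrsf1a, with r from 0.977 for Tnfrsf1a to 0.988 for Gpr160. Slc11a1, a metal transporter of the phagosome membrane, ranged from 8.94 to 163 CPM, and Cd14, the lipopolysaccharide co-receptor, from 1.32 to 35.7 CPM. Their log2 fold changes between genotypes over the 9 tumors were between -0.66 for Clec4a3 and 0.10 for Slc11a1, each below its standard error. The 3 least alike were Bag6 (r = -0.92), Fgfr1op2 (r = -0.91) and Pus10 (r = -0.88), and Bag6 ranged from 60.8 to 85.5 CPM over the tumors.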

How the data were processed

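The authors ran the nf-core RNA-seq pipeline, aligned reads with STAR to mm10 and deposited raw featureCounts counts per gene, 1 column per tumor, without normalization. The submitters' processing notes name DESeq2 1.28.1 and R 4.0.2. Per the labels, tumors were grouped by genotype. Positions, exon lengths and GC content came from GENCODE (GRCm38), which held 97.9% of the genes. The genotype test was the quasi-likelihood test of edgeR (version 4.0.16, R 4.3.3) with TMM, its filter on low counts and Benjamini-Hochberg adjustment, tested on simulated data. Log2 CPM used a prior count of 2. Nothing says whether the tumors shared a litter or batch. The p-values set differences against the spread between these tumors and take the tumors as independent, which could not be checked.

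Deviations from the genotype means correlated at 0.471, 0.130 and 0.181 between the tumors numbered 1, 2 and 3 (13360 genes). The pairing comes only from the numbers in the labels, and was used since each correlation was above 0.1. Tumors with unlike numbers were not compared, so these values do not show that the numbers pair the tumors. The largest is that of the 2 tumors labelled mesenteric lymph node, so number and label cannot be told apart in it. The genotype means include the tumors numbered 1, so these tumors also enter the other correlations. The 10 genes and the lists were chosen with earlier results of these data known. From each list the genes with the smallest p in each direction and up to 4 past the thresholds were named. Alternatives were DESeq2 1.42.0, limma 3.58.1, other normalizations and filters, a length and GC offset (lowess span 0.3), covariates and omitted tumors; those without both tumors of a number or with 1 tissue label were added after seeing the data.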

Additional observations from a re-analysis of the deposited data

Results flagged for a closer look

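In each of the 10 genes and in their mean z-score, 11 measures in all, the lowest and the highest of the 6 Smc3/Bcl6 tumors were compared with the others by Dixon's ratio, the gap to the nearest tumor divided by the whole range. Smc3/Bcl6 tumor 1 lay far below the other 5 tumors for C1qa (ratio 0.658 on log2 CPM), for C1qc (0.663) and for the mean z-score of the 10 genes (0.767). C1qb, at 0.584, was not flagged. Chance alone flags about 1 in 20 such groups, but the 11 measures are not separate. C1qa and C1qc had r = 0.992 over the 9 tumors, and the mean z-score is made from the same 10 genes. This tumor is labelled mesenteric lymph node, as is Bcl6 tumor 1, and the part of the label in these values was not tested.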

How the results depend on the processing

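The count of the 10 genes past the thresholds over the 9 tumors was 0 in the fit reported. With limma and quality weights it was 2 (Chil3 and Ccr2), where 1002 of all 14057 genes tested were lower and 642 higher. It was 1 (Ccr2) with no filter on low counts, where 812 of 26445 genes were lower. It was also 1 (Ccr2) with the tissue label as a covariate (192 of 14057 lower). The same held for the 7 tumors labelled lymph node alone (150 of 14546 lower). A replicate block over 9 tumors gave 4 (Mertk, Chil3, Ccr2 and Emr1), where 264 of 14057 were lower. Without each tumor in turn the count was 0 to 1, with 61 to 321 of all genes lower and 84 to 339 higher. Over replicates 1 to 3 the count was 2, and 5 with the replicate block, 4 with the block and the length and GC offset. It was 4 with the block without both tumors numbered 2 or both numbered 3, and 1 at an unadjusted p below 0.05. Without each tumor it was 1 to 2, with 80 to 902 of all genes lower, the most without Smc3/Bcl6 tumor 3. The number of correlated pairs was 13, and 25 after length and GC correction, and 8 to 21 without each tumor (8 without Bcl6 tumor 1, Bcl6 tumor 3 or Smc3/Bcl6 tumor 1, 21 without Smc3/Bcl6 tumor 2).

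Over the 9 tumors, 32 of 190 log2 fold changes turned direction, 12 passed the thresholds that had not and 146 kept both. With the replicate block these were Csf1r (-1.15) and Mertk (-1.56). With the tissue label as a covariate they were Csf1r (-0.54), Mertk (-0.63), C1qa (-0.18), C1qb (-0.0572), C1qc (-0.11) and Lyz2 (-0.18), and with the tumors labelled lymph node alone Mertk (-0.10) and Lyz2 (-0.26). With limma they were C1qa (-0.32), C1qb (-0.29), C1qc (-0.19) and Lyz2 (-2.06). Lyz2 was -0.0663 with total counts only and -0.16 with the length and GC offset. Without each tumor in turn the ranges were -0.12 to 1.61 for Csf1r, -1.14 to 0.67 for Emr1, -0.43 to 1.44 for Mertk, -0.11 to 1.33 for C1qa, -0.0896 to 1.397 for C1qb, -0.58 to 1.09 for Lyz2 and -3.01 to 0.18 for Chil3.

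Over replicates 1 to 3, 16 of 180 values turned direction, 5 no longer passed, 12 newly passed and 147 kept both. With limma C1qa was -1.05, C1qb -0.88, C1qc -1.03 and Lyz2 -1.15. With the replicate block and the length and GC offset C1qa was -0.21, C1qb -0.0345 and C1qc -0.0711, and with the block without both tumors numbered 2 they were -0.48, -0.36 and -0.62. Without each tumor the ranges were -2.23 to 0.70 for Csf1r, -3.90 to 1.02 for Mertk and -0.38 to 1.39 for Lyz2. The causes were not tested. Each of the 10 genes had at least 6331 counts over the 9 tumors.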
